A study of Mus musculus with 3 samples.

Results

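The genes described here encode integrins, laminins and other proteins of the basement membrane and of the matrix that integrins bind. They were given as a list of 33 genes, and 30 of them matched at least 1 probe of the array by transcript accession, out of 16998 genes matched in all. No probe was matched to Itgb8, Lama3 or Hspg2, which were not analysed here. The 30 genes were read by 50 probes. Of the 30, 28 were well above background in esophagus, stomach and intestine alike, Lamc3 was so in intestine alone, and Itga7 was not well above background on any array. The arrays were hybridised with Cy3-labelled total RNA from the primordia of those 3 organs, dissected from ICR mouse embryos at E11.5, with no genotype or treatment named in the labels. There was 1 array per organ, so the differences have no replicate check and no test was made. How many embryos went into a sample is not given in the labels, and their extraction text names the stomach for every sample, so the organ was taken from the tissue label.

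Basement membranes are sheets of laminin and type IV collagen networks, joined by nidogens and by the heparan sulfate proteoglycans perlecan and agrin, that lie under epithelia and around muscle, nerve and vessels. A laminin is a trimer of an alpha, a beta and a gamma chain. Cells hold on to these sheets and to the looser matrix of the mesenchyme through integrins, each a pair of an alpha and a beta chain, whose pairing decides whether laminin, collagen or RGD-bearing proteins such as fibronectin are bound. In the developing gut an epithelial tube rests on such a sheet, inside mesenchyme that forms smooth muscle, and the esophagus later gains a stratified epithelium fixed to the sheet by hemidesmosomes.

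A level below is log2 of the processed spot intensity minus the array's 75th percentile, so a difference of 1 is 2-fold. Levels are compared between organs for the same probe and not between genes. Spots of a probe printed at least 8 times had a median SD of 0.08 to 0.10 log2 units on the 3 arrays. Where a gene had several probes, their differences spread with a median SD of 0.25 (stomach minus esophagus), 0.46 (intestine minus esophagus) and 0.31 (intestine minus stomach). The organ labels were checked on genes that define the organs. Cdx2, the intestinal master regulator, was at 1.85 in intestine and not well above background in esophagus, Barx1 of stomach mesenchyme was at 4.43 in stomach, and Trp63 of basal epithelium was at 0.25 in esophagus and not well above background in intestine.

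Adhesion and basement membrane genes leaned towards the esophagus relative to all genes. When arrays were scaled to spike-in controls, their median for intestine minus esophagus turned positive (0.22), with that of all genes at 0.89. The list was chosen with earlier results of these data known. Its shares beside those of all genes, here and below, are therefore a description only. In stomach against esophagus, 6 of the 28 measured members (21.4%) were at least 2-fold lower, namely Tnc, Itga11, Itga4, Itgb4, Lamb3 and Itga1, against 5.71% of all 13742 genes measured. Itga3 and Itgb6 were at least 2-fold higher, which is 2 of 28 against 4.14% of all genes. In intestine against esophagus, 9 of 29 (31%) lay lower by that much or more, namely Tnc, Lamb3, Itga1, Itgb4, Lama2, Itgav, Itga11, Itga2 and Fn1, against 11.5% of all 14470 genes, and Itga3 and Lama1 lay as far above, against 8.4% of all genes. In intestine against stomach, 6 of 29 (20.7%) were at least 2-fold lower, namely Tnc, Itgb6, Lamb3, Itgav, Itga1 and Itga2, against 7.18% of all 14390 genes, and Lama1 alone was at least 2-fold higher, against 4.77%.

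**Figure D1:**
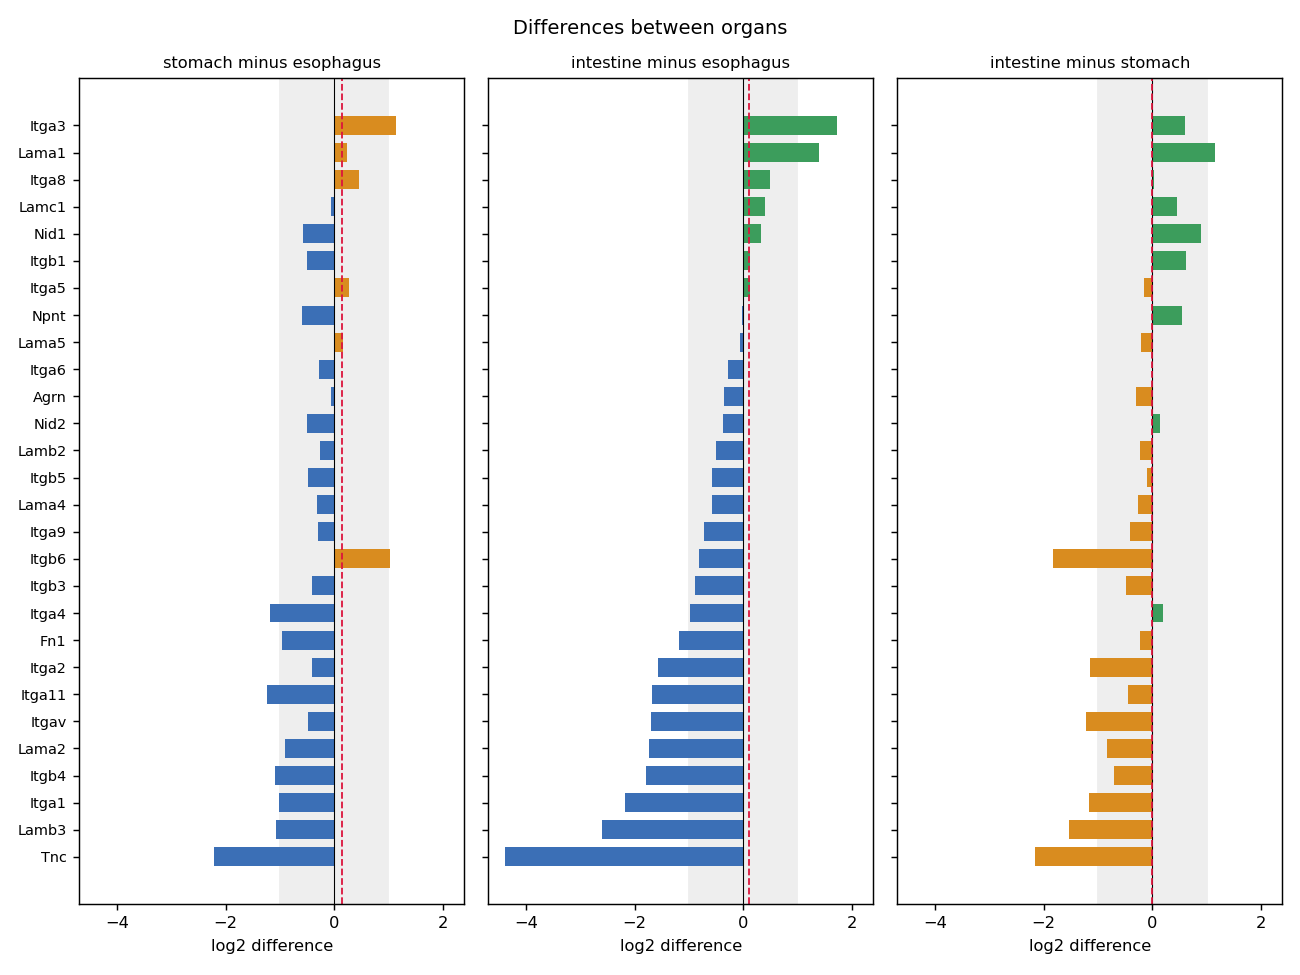
Log2 differences of the 28 members measured on every array, for the 3 pairs of organs (x axis, log2 units; 1 array per organ, so no error bars), sorted by intestine minus esophagus. Bars take the colour of the organ with the higher level (blue esophagus, orange stomach, green intestine), the grey band marks differences under 2-fold and the dashed red line is the median of all genes; Tnc reaches −4.39 in the middle panel and most bars there point towards esophagus.

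A difference of 4-fold was rarer. Tnc alone was 4-fold or more lower in stomach than in esophagus (1.58% of all genes were) and in intestine than in stomach (1.24%), while Tnc, Lamb3 and Itga1 passed 4-fold between intestine and esophagus (3.71%). No member was at least 4-fold higher in any of the 3 comparisons, where 0.684%, 1.75% and 1.38% of all genes were, in the order of the panels of the plot of differences. A stepwise order, with esophagus above stomach above intestine and at least 2-fold from end to end, was seen in 9 of 28 members (32.1%) and in 8.82% of the 12864 genes measured on every array. The opposite order held for Itga3 and Lama1, against 5.95% of all genes.

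The members' median was −0.44 (stomach minus esophagus), −0.57 (intestine minus esophagus) and −0.23 (intestine minus stomach), where the medians of all genes were 0.15, 0.10 and 0.00. Where the arrays are centred on their medians, the median of all genes moves by 0.20, 0.50 and 0.25 in these comparisons and that of the members becomes −0.24, −0.07 and 0.07, so the last turns in sign. Relative to all genes the members' median was −0.59 and −0.67 for the comparisons with esophagus under both scalings. For intestine against stomach it was −0.23 and −0.18. Centring shifts all genes of an array by 1 constant, so this near equality follows from the arithmetic and does not check the lean towards esophagus. With median centring 2 members were higher and 2 lower in stomach than in esophagus (6.91% and 4.16% of all genes), in place of 2 and 6. In intestine against stomach the split became 2 higher and 3 lower (8.78% and 4.01%) in place of 1 and 6. In intestine against esophagus it became 2 and 8, while the split of all genes turned to 26.1% higher and 6.68% lower.

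Tnc, Lamb3 and Itga1 were at least 2-fold lower at each step from esophagus to stomach to intestine. Itga3 and Lama1 had the opposite order, and the step of Itga3 from stomach to intestine was under 2-fold (0.61). The step from esophagus to stomach was under 2-fold after normexp correction for Itga1 (−0.70) and Lamb3 (−0.49), and both steps were so for the other Tnc probe (−0.85 and −0.21). The first step was also under 2-fold with median centring (Itga1 −0.82, Lamb3 −0.86) and quantile normalization (−0.95 and −0.98). For Itga1 the step from stomach to intestine was −0.87 with median centring, −0.96 with quantile normalization and −0.28 with spike-in scaling. The 250 bases before the most upstream start that RefSeq lists are shown for Tnc, Lamb3, Itga1 and Itga3. This sets the promoters of Tnc, Lamb3 and Itga1 beside that of Itga3 alone, without Lama1. They are written 5′ to 3′ along the gene, from the GRCm38.p6 build, and capitals mark matches to the motifs searched.
Tnc, chr4:64047016-64047265, minus strand: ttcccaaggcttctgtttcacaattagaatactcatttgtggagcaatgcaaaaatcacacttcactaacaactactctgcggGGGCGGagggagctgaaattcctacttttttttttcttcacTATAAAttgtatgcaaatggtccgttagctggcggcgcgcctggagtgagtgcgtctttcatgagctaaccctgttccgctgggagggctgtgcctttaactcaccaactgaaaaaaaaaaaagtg
Lamb3, chr1:193301744-193301993, plus strand: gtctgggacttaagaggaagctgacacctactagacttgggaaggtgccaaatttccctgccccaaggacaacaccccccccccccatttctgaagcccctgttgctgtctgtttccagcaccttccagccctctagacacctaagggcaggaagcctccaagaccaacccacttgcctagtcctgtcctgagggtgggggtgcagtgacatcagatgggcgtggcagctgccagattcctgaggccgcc
Itga1, chr13:115101965-115102214, minus strand: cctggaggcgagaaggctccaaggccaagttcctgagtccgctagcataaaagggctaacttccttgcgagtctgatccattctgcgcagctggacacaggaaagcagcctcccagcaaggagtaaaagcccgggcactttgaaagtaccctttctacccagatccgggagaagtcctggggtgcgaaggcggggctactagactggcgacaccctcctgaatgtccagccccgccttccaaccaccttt
Itga3, chr11:95076715-95076964, minus strand: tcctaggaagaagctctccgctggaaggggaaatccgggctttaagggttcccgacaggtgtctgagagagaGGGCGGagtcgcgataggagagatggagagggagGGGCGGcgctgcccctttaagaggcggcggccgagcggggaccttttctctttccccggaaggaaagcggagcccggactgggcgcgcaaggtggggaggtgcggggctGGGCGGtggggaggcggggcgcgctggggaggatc

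The motifs were the GC box GGGCGG, the TATA box TATAAA, an AP-1 site TGANTCA and a TEAD site GGAATG, each on both strands. Itga3 held 3 GC boxes, with a GC content of 67.6% and 22 CpG dinucleotides. Tnc held 1 GC box and 1 TATA box, which starts 126 bases before the listed start, with a GC content of 44.8% and 8 CpG dinucleotides. The windows of Lamb3 (58.8% GC, 2 CpG) and Itga1 (57.6% GC, 10 CpG) matched none of these letters. In the RefSeq promoter table, which holds 22 of the 33 members, 11 of the 22 had a GC box, 1 a TATA box, 2 a TEAD site and 0 an AP-1 site, where the shares among all 27025 genes were 33%, 13.0%, 12.6% and 6.85%.

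Among the soluble ligands and matrix proteins outside the laminin network, tenascin C stood furthest apart. Tnc, an anti-adhesive matrix protein of mesenchyme around growing epithelia, was at 1.11 in esophagus, −1.11 in stomach and −3.28 in intestine. It was therefore 4.66-fold lower in stomach and 20.9-fold lower in intestine than in esophagus. The size rests on the probe: the other Tnc probe was at −1.43, −2.28 and −2.48, which is −0.85 for stomach and −1.05 for intestine against esophagus, and only −0.21 for intestine against stomach. Both probes put the esophagus highest and the intestine lowest.

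Fibronectin, Fn1, the main RGD-bearing ligand of mesenchyme, was at 1.69 in esophagus, 0.73 in stomach and 0.51 in intestine by a probe printed 9 times, whose spots had an SD of 0.03 to 0.04 on each array. The differences from esophagus were −0.96 and −1.19. All 3 Fn1 probes had the same order of organs, and they ranged from −2.95 to −1.19 for intestine against esophagus. With median centring the latter value was −0.68, under 2-fold. Npnt, nephronectin, a basement membrane ligand of the integrin alpha 8 chain, differed less, with 0.03 in esophagus, −0.56 in stomach and −0.01 in intestine. Its 3 probes all put the stomach below the esophagus, by 0.42 to 0.59.

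The laminin alpha chains did not move as a set. Lama1, the alpha chain of the earliest embryonic basement membranes, was at −2.23 in esophagus, −2.00 in stomach and −0.83 in intestine, 2.64-fold higher in intestine than in esophagus and 2.24-fold higher than in stomach. After normexp background correction these differences were 0.79 and 0.58, under 2-fold. Lama2, the chain of muscle and Schwann cell basement membranes, ran the other way, from −3.04 in esophagus to −3.95 in stomach and −4.77 in intestine, a 3.33-fold difference from end to end that was −0.95 on the log2 scale, under 2-fold, with spike-in scaling. Lama5, the most widespread epithelial chain, was at 1.44, 1.60 and 1.38, within 1.16-fold in every pair of organs. Lama4, the chain of vessels and mesenchyme, was at 1.36, 1.03 and 0.78, and another probe of it gave −1.11 and −1.44 for stomach and intestine against esophagus in place of −0.32 and −0.58.

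Of the laminin beta and gamma chains, Lamb3 stood apart. Lamb3, the beta chain of the laminin that anchors hemidesmosomes, was at −1.37 in esophagus, −2.43 in stomach and −3.96 in intestine, which is 2.09-fold and 6.04-fold below esophagus. The broadly used chains Lamb2 (1.05, 0.79 and 0.56 in esophagus, stomach and intestine) and Lamc1 (2.67, 2.61 and 3.06) stayed within 1.5-fold in every pair. Lamc3 was not well above background in esophagus or stomach and lay near the floor in intestine, at −6.01, so no fold is given.

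The nidogens, which join laminin to collagen, were lowest in stomach. Nid1, nidogen 1, was at 2.93 in esophagus, 2.35 in stomach and 3.25 in intestine, 1.87-fold higher in intestine than in stomach and, with median centring, higher by 1.20 log2 units. Nid2 was at 1.20, 0.69 and 0.83 in the same order of organs. The type IV collagens Col4a1 and Col4a2, which are not among the 33 genes, were likewise lowest in stomach, with 2.35 and 1.67 there against 3.39 and 2.55 in intestine. Col4a4 (−1.09, −0.49 and 0.00) and Col4a6 (−2.46, −2.02 and −1.66) were instead lowest in esophagus. Agrn, the proteoglycan agrin, was at 5.91, 5.86 and 5.55, within 1.28-fold.

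**Figure D2:**
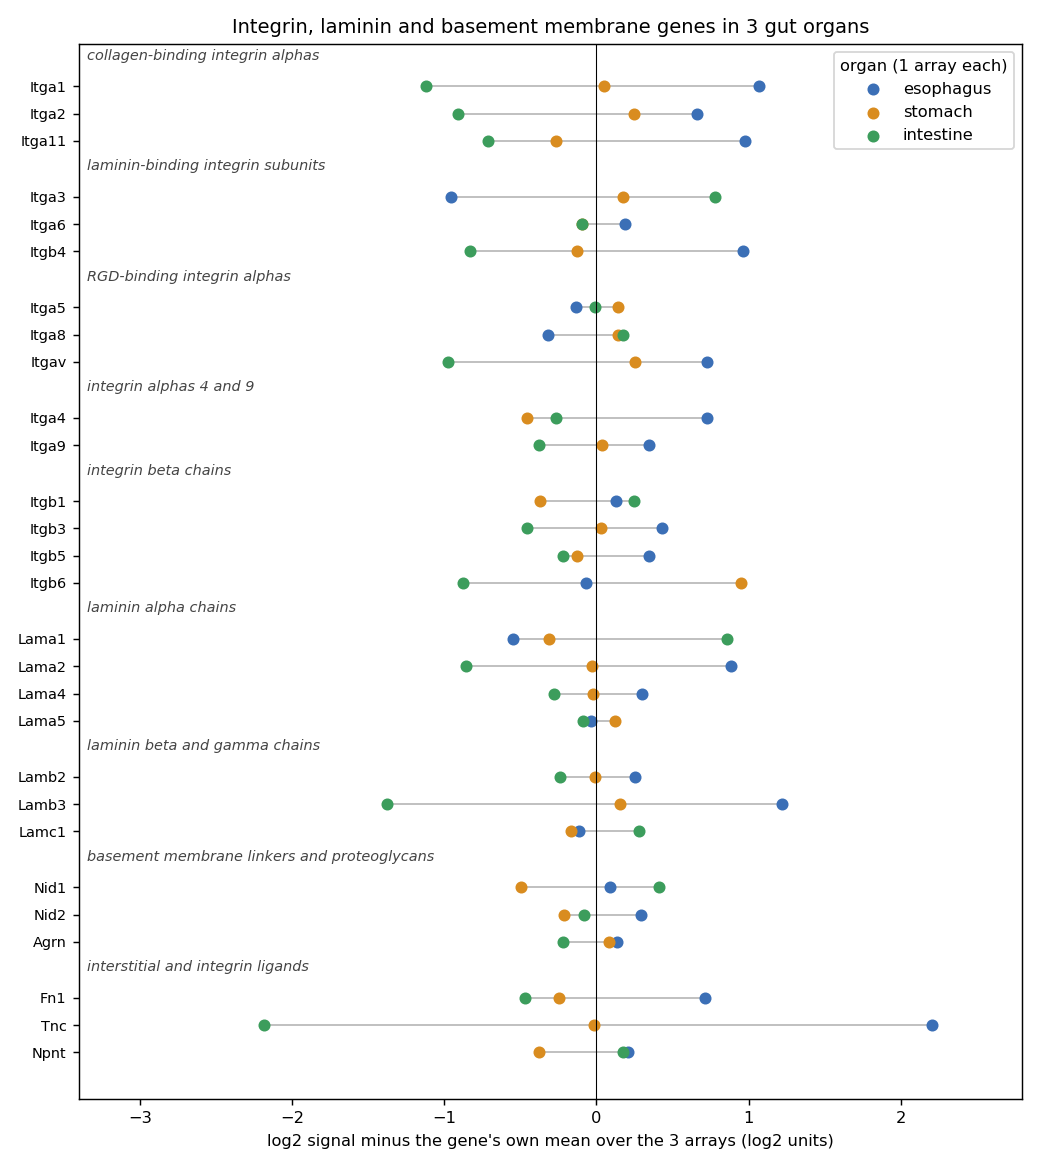
Level of each of the 28 members measured on every array, minus that gene's own mean over the 3 arrays (x axis, log2 units), with 1 point per organ (blue esophagus, orange stomach, green intestine) and genes grouped by role. The collagen receptors, Itgb4, Lama2, Lamb3 and Tnc run from esophagus on the right to intestine on the left, and Itga3 and Lama1 run the other way.

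The collagen-binding integrin chains Itga1, Itga2 and Itga11 all had the order esophagus, stomach, intestine, and all 3 passed 2-fold between the ends, though Itga2 and Itga11 did not when arrays were scaled to the spike-ins. Itga1, the collagen receptor of smooth muscle and mesenchyme, was at −0.92 in esophagus, −1.94 in stomach and −3.11 in intestine, a 4.56-fold difference from end to end. Its other probe gave −2.52 for the same comparison. Itga11, a receptor of mesenchymal fibroblasts, was at −0.16, −1.41 and −1.85, and the larger part of its difference lay between esophagus and stomach. Itga2 was at −3.88, −4.29 and −5.44, and its intensities of 17.1 to 26.8 were close to the lowest signal counted as above background, which was 5.85 to 8.12.

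Laminin-binding chains split. Itga3, an epithelial laminin receptor chain, was at −0.89 in esophagus, 0.24 in stomach and 0.84 in intestine, 2.19-fold and 3.33-fold higher than in esophagus. All 3 of its probes were higher in stomach and in intestine than in esophagus, although the dimmest gave only 0.26 for intestine against esophagus and went below stomach in intestine by 0.51. Itgb4, which pairs with the Itga6 chain in hemidesmosomes, was at 0.44, −0.65 and −1.36, and its other probe matched it at 0.26, −0.76 and −1.43. Itga6 itself was at 0.47, 0.19 and 0.19, a difference of 1.21-fold from esophagus in both organs.

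Of the 3 RGD-binding alpha chains listed, only Itgav passed 2-fold by the probe used. Itgav, the shared partner of several beta chains, was at −2.94 in esophagus, −3.42 in stomach and −4.64 in intestine, 3.26-fold lower in intestine than in esophagus. With spike-in scaling that difference was −0.92, under 2-fold, and its difference from stomach of −1.23 became −0.93 with median centring, −0.92 with quantile normalization and −0.34 with spike-in scaling. Itga5, the fibronectin receptor chain, stayed between −1.40 and −1.12. Itga8, the receptor chain for Npnt, was at 1.56, 2.02 and 2.05 by the probe used, but the dimmest probe gave −1.30 for intestine against esophagus, so its probes disagree. The genes nearest in pattern over the 3 arrays were Ankrd6, Borcs6 and Nt5dc3 for Npnt and Atp6v0e, Adamts14 and Gnptg for Itga8. The likeness is the distance between the gene's centred levels, which was at most 0.027 and 0.008, and 40 and 565 of 12864 genes lay within 0.1.

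Itga4, which binds fibronectin and Vcam1, was at 1.67 in esophagus, 0.49 in stomach and 0.68 in intestine. It was 2.27-fold lower in stomach, and its 3 probes ranged from −2.02 to −1.18 there and from −3.08 to −0.99 in intestine. Itga9, a receptor for tenascin C and Vcam1, was at 2.84, 2.53 and 2.11.

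Of the beta chains other than Itgb4, only Itgb6 passed 2-fold in a comparison by the probe used. Itgb6, the epithelial partner of Itgav that activates latent TGF-beta, was at −3.73 in esophagus, −2.71 in stomach and −4.54 in intestine, highest in stomach by 2.03-fold over esophagus and 3.55-fold over intestine. A second probe, not well above background in esophagus, gave −1.51 for intestine against stomach. Itgb1, the partner of most alpha chains, was at 0.91, 0.41 and 1.03 by a probe read over 7 to 9 spots with an SD of at most 0.08. The other Itgb1 probe was at 1.67, 1.02 and −0.42, and so was −2.09 for intestine against esophagus where the first gave 0.12. Itgb3 was at 0.16, −0.24 and −0.73, and Itgb5 at 3.72, 3.25 and 3.16.

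Of the 11 members with at least 2 probes above background on both arrays, all 11 had probes of the same sign between stomach and esophagus, and 9 between intestine and esophagus. Between intestine and stomach 7 of 12 did. Values for Itgb1, Itga8, Itga3, Tnc, Itga4 and Fn1 in intestine therefore depend on the probe.

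**Figure D3:**
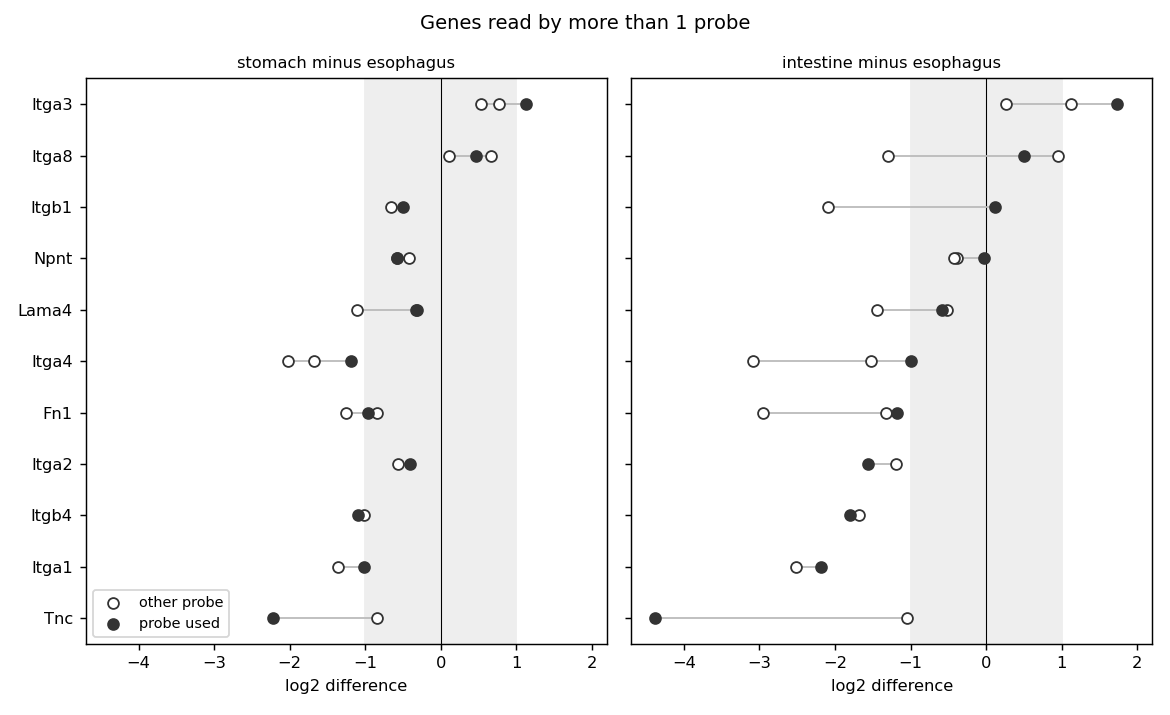
Differences by probe for the 11 members with at least 2 probes above background, for stomach minus esophagus (left) and intestine minus esophagus (right; x axes, log2 units). Filled points are the probes used, open points the others, and the grey band marks under 2-fold; the points of Itgb4 nearly coincide, while those of Tnc lie at −4.39 and −1.05 in the right panel.

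Genes of hemidesmosomes and anchoring fibrils that were not listed members were set beside Itgb4 and Lamb3. Col17a1, a transmembrane collagen of hemidesmosomes, was −0.84 in stomach and −1.90 in intestine against esophagus. Col7a1, of anchoring fibrils, was −0.76 and −1.51, and Plec, plectin, was −0.67 and −1.45. All of these were lowest in intestine, whereas Dst, dystonin, was −1.02 and −0.76. Markers of basal squamous epithelium moved with them: Krt5 was −1.88 and −3.83 and Krt15 −1.65 and −4.18, while Krt14 stayed within 0.19. The summed level of the 4 basal markers was 5.04 times the 75th percentile in esophagus, 1.46 times in stomach and 0.30 times in intestine. The part of basal cells in the values of Itgb4 and Lamb3 was not tested, and in whole tissue fewer cells of a type and less RNA per cell cannot be told apart. General epithelial markers were split. Epcam was at −0.81, −0.14 and 0.11 in esophagus, stomach and intestine, while Cdh1 (0.00, −0.16 and −0.67) and Foxa2 (2.82, 2.47 and −0.21) had the order of Itgb4 and Lamb3. Their summed level of 40.5, 102 and 51.2 times the 75th percentile was mostly that of the keratins Krt8 and Krt18.

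**Figure D4:**
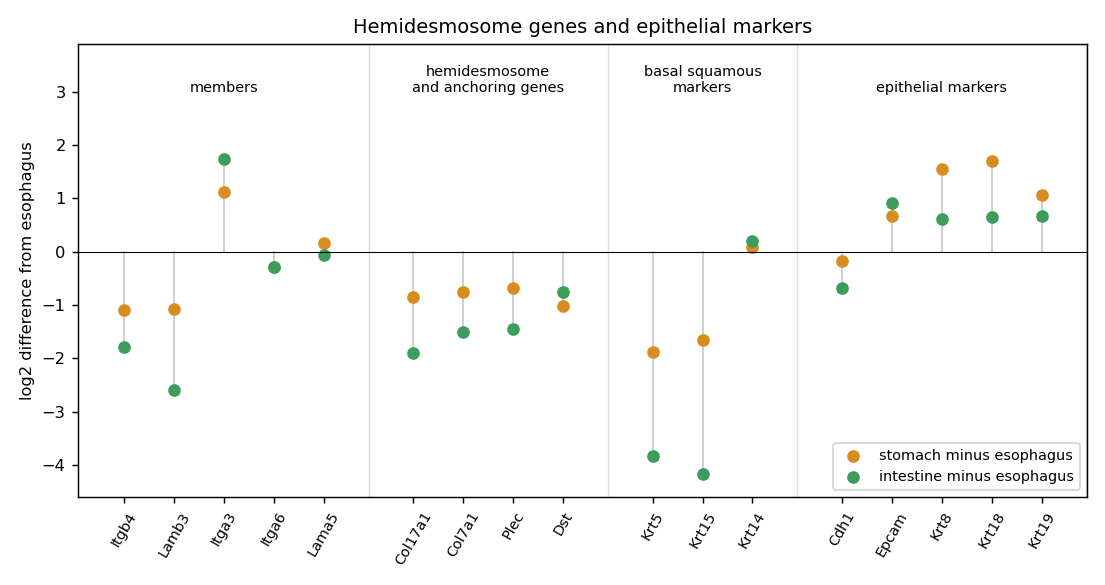
Log2 difference from esophagus (y axis) in stomach (orange) and intestine (green) for 5 members, other hemidesmosome and anchoring genes, basal squamous markers and general epithelial markers, 1 array per organ. Itgb4, Lamb3, Col17a1, Col7a1 and Plec lie below 0 with intestine lowest, like Krt5 and Krt15, while Itga3 and Krt8 lie above 0; Trp63, not above background in intestine, is left out.

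A list of 101 other genes of the pathway was read the same way, of which 94 had a probe. Between stomach and esophagus 19 of 85 measured genes passed 2-fold with the stomach lower and 3 with it higher, with a median of −0.26. In intestine 21 of 87 were that much lower than in esophagus and 9 higher, with a median of −0.12, and 6 of 86 were lower than in stomach and 8 higher, with a median of 0.11. Against 5.71% lower and 4.14% higher among all genes for the first pair, 11.5% and 8.4% for the second and 7.18% and 4.77% for the last, the share of lower genes in intestine against stomach was near the background. Among other integrin ligands, the thrombospondins Thbs2 (−2.73) and Thbs1 (−1.83) and the basement membrane protein Frem2 (−1.66) were lower in stomach than in esophagus, and Egfl6, a ligand with an RGD motif, was at least 4.57-fold lower, since it was not well above background in stomach. In intestine against esophagus Frem2 was −3.54 and Thbs1 −3.09, while Vtn, vitronectin, a plasma protein made by liver, was 3.88. In the comparisons with intestine, Vtn moved with hepatocyte markers, all 6 of which were at least 2-fold higher there than in either other organ. Between stomach and esophagus 4 of the 5 measured were at least 2-fold lower in stomach, while Vtn was −0.21. The markers had summed levels of 9.59, 3.14 and 60.1 in esophagus, stomach and intestine, and their part in the level of Vtn was not tested.

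In the other lists of the pathway fewer genes passed 2-fold. Of 13 measured basement membrane collagens and linkers, 3 were lower in intestine than in esophagus and 2 higher, where 11.5% and 8.4% of all genes were. Among the higher was the calcium-binding matrix protein Smoc1, at 2.97. Smoc2 was −1.49 in stomach against esophagus. Among 11 other matrix receptors only Ddr2, a collagen-binding receptor tyrosine kinase, passed 2-fold, at −1.81 in stomach and −2.96 in intestine against esophagus. Of 22 integrin adaptors, 4 passed 2-fold downwards in stomach and 5 in intestine against esophagus, and 1 passed it upwards in intestine. Among all genes 5.71% and 11.5% were that much lower, and 8.4% that much higher in intestine. The lower adaptors include Itgb1bp2, melusin, a muscle protein. It was at −2.70 in esophagus, not well above background in stomach and at −6.39 in intestine. Of 10 matrix proteases and inhibitors, Timp3 was −1.32 and −1.85, and Timp2 −0.85 and −1.23, in stomach and intestine. Of the 6 other integrin chains measured, Itga2b, the platelet chain, was −1.44 in stomach and −1.23 in intestine. Other platelet markers were lower too, with Pf4 at −1.18 and −0.60, Ppbp at −1.30 and −0.68 and Gp9 at −1.08 and −0.67, and 4 of the 5 on that list, Itga2b included, passed 2-fold in stomach. The part of platelets in the level of Itga2b was not tested. Of 6 laminin-like genes and other laminin chains, Ntn1, netrin 1, was −1.11 and −2.00 and Lamb1 −0.47 and −0.44.

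Several cell type markers differed between the organs in the same direction as the members. All 7 heart muscle markers passed 2-fold with the esophagus higher than either other organ, with summed levels of 106 times the 75th percentile in esophagus, 3.20 in stomach and 3.83 in intestine, and all were above background on every array. Smooth muscle markers summed to 149, 71.9 and 65.5, cartilage markers to 7.62, 3.61 and 2.12 and skeletal muscle markers to 1.62, 0.090 and 0.075. The cartilage sum was mostly that of Col2a1 and Sox9. Acan was at 0.20 in stomach and −0.15 in intestine against esophagus, and Matn1 was not well above background on any array. The 8 mesenchymal markers summed to 325, 211 and 166, but they were split. Against esophagus, Col1a1 (−1.43 in stomach, −1.66 in intestine), Col1a2 (−0.70, −1.85), Twist1 (−2.21, −2.68) and Prrx1 (−3.10, −4.82) were lower, while Vim (−0.09, 0.09), Col3a1 (−0.19, 0.46) and Pdgfra (0.37, −0.19) stayed within 0.46 and Foxf1 was at 0.39 and −0.56. Of the 4 trachea and lung markers, 3 were well above background in esophagus and not in stomach or in intestine. The other, Foxj1, went the opposite way, at 0.37 in stomach and 1.67 in intestine against esophagus. Endothelial markers, by contrast, summed to 13.0, 10.52 and 15.8 and macrophage markers to 2.49, 2.73 and 2.79. The part of any of these tissues in the levels of Tnc, Fn1, Itga1, Itga11, Itgb4, Lamb3 and Lama2 was not tested.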

How the data were processed

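Labelled RNA of 3 samples was read on 1-colour Agilent mouse arrays of 1 design, 45018 spots each. The deposited scanner files hold spot intensity from Agilent Feature Extraction 10.5.1.1 after background subtraction and detrending, per the file headers, without scaling between arrays. The deposited value table holds log2 values of the same arrays with their making unstated; against the scanner values, 99.8% to 99.9% of probes fell within 0.01 after a constant per array, with medians of −2.97, −3.17 and −3.47 in esophagus, stomach and intestine.

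Outlier spots were left out (70 to 111 per array), log2 intensity was set against each array's 75th percentile (393, 334 and 1023 in esophagus, stomach and intestine) over non-control spots, and spots were averaged. Accessions named 24342 of 41112 probes through a RefSeq table of GRCm38.p6. A gene was represented by its probe with the highest mean among those well above background somewhere. A gene entered a comparison when well above background on either array. Against an array where it was not, the difference is a bound, taken from the higher of that array's lowest accepted signal and the probe's own signal. With 1 array per organ a count of genes past a fixed fold of 2 or 4 stands in for a test, beside the same count over all genes. The steps were run on simulated data with differences far above the cutoff and little noise. That checks the code and not the reliability of calls near 2-fold. All members may be named, and other pathway lists name at most 4 genes with the largest difference in a comparison, beside genes set next to a member. A gene that this rule would name is not reported here. The members and lists were chosen with earlier results of these data known. Python 3.11.15, pandas 2.3.3, R 4.3.3 and limma 3.58.1 were used, the last for normexp (offset 50) and quantile normalization.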

Additional observations from a re-analysis of the deposited data

How the results depend on the processing

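The counts of members at least 2-fold apart and their medians were recomputed under 8 alternatives and under scaling to the spike-in controls, which was chosen after seeing the data. From the deposited value table, with probes above background on both arrays and with no filter on dim probes, every call of a member held. These settings could hardly end a call. Every called member was above background on both arrays compared, and deposited values differ from scanner values by nearly a constant per array. For members with 1 probe, such as Itga11, Itgav, Lama2 and Lamb3, the dimmest probe and the mean over probes also repeat the main value. Holding under all 8 therefore rests on fewer settings that could end a call. No call changed sign. In intestine against esophagus 8 of the 11 calls held under all 8 (Itga1, Itga2, Itga11, Itgb4, Itgav, Lama2, Lamb3 and Tnc), in intestine against stomach 2 of 7 did (Itgb6 and Lamb3), and in stomach against esophagus 0 of 8 did, where Itga1, Itgb4, Lamb3 and Itgb6 lay within 2.13-fold. Of these, spike-in scaling ended the calls of Itga2, Itga11, Itgav and Lama2 in intestine against esophagus, and of Itgb6 (−0.94) and Lamb3 (−0.64) in intestine against stomach.

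The share of all genes is given in brackets after each count. In stomach against esophagus, where 2 members were higher and 6 lower, normexp correction left 1 and 2 (1.20% and 1.99%). Median centring left 2 lower (4.16%). The dimmest probe, the mean over probes and spike-in scaling left 1 higher (3.92%, 3.91% and 3.25%). In intestine against esophagus, with 2 higher, normexp correction and the dimmest probe left 1 (4.54% and 8.78%). Spike-in scaling gave 5 higher and 4 lower (43.0% and 4.78%). In intestine against stomach, with 1 higher and 6 lower, normexp correction left 0 higher, median centring gave 2 higher and 3 lower, no filter on dim probes gave 2 higher, quantile normalization left 3 lower, and spike-in scaling gave 8 higher and 1 lower. The median for intestine against esophagus was −0.067 with median centring and 0.22 with spike-in scaling, and for intestine against stomach 0.072 and 0.67. Spike-in scaling moved the median of all genes by 0.78 and 0.84 in these comparisons. Relative to all genes the members' median for intestine against esophagus was −0.67 with and without it. A shift by 1 constant per array leaves that value the same, so it is no check of the lean. Naming by a gene name column was not run because the scanner files used here carry accessions. No paired analysis was possible because the organs share only replicate number 1. Dim probes such as those of Itga2, Itgav, Itgb6 and Lama2 limit the precision of their values. The dimmest probe per gene also gave more falls past 2-fold in intestine. Against esophagus it gave 13 members and 16.3% of all genes, in place of 9 and 11.5%. Before scaling, Itga2, Itgav and Lama2 had higher intensities in intestine (23.5, 41.0 and 37.4) than in stomach (17.1, 31.3 and 21.7). Their levels became lower in intestine once set against the 75th percentile (334 in stomach, 1023 in intestine). Whether dim probes read too low in intestine was not tested.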
